A study of Homo sapiens with 18 samples.

Results

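The transcripts described here are 8 long noncoding RNAs that are studied in hypoxia or in liver cancer: NEAT1, MALAT1, H19, HULC, MIR210HG, GAS5, SNHG1 and SNHG12. They were taken by name, as the 8 rows of the deposited count table, of 61806 rows in all, whose Ensembl identifier carries one of these symbols. All 8 passed the filter on low counts, which kept 19743 genes. The libraries came from HepG2, a human hepatoma line, and from APOA4-KO, a HepG2 line in which CRISPR-Cas9 was directed at exons of APOA4, the gene of a lipid-binding apolipoprotein. Each line was sequenced untreated (0 h) and after 24 h and 48 h at 1% oxygen, as 3 poly(A)-selected libraries in each of the 6 groups, 18 in all. No cells were kept in normal oxygen for 24 h or 48 h, so hypoxia and time in culture cannot be told apart, and APOA4-KO is a single edited line, so the edit and any other difference between the lines cannot be told apart. The labels do not say that the 3 libraries of a group came from separate cultures, so the p-values measure the spread between these libraries, which may be technical. In libraries of pooled cells, fewer cells with a transcript and less of it in each cell cannot be told apart.

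Long noncoding RNAs are transcribed and often spliced like messenger RNAs but act as RNA. NEAT1 is the scaffold of paraspeckles, nuclear bodies that hold RNA-binding proteins, and MALAT1 lies in nuclear speckles, where splicing factors collect. MIR210HG is the host transcript of miR-210, the microRNA best known for its induction by the hypoxia-inducible factors (HIFs), which bind the short motif ACGTG or GCGTG. H19 is the maternally expressed, imprinted partner of IGF2 and holds miR-675 in an exon, and HULC was named for its high level in liver cancer. GAS5, SNHG1 and SNHG12 are hosts of small nucleolar RNAs (snoRNAs), which guide the modification of ribosomal RNA; the spliced host RNA is usually read by the ribosome only as far as an early stop codon and then destroyed by nonsense-mediated decay, so its level also depends on translation. MALAT1 and the long form of NEAT1 end in a triple helix in place of a poly(A) tail, so a poly(A)-selected library catches them only in part.

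The edited gene was checked first. APOA4 RNA was present in every library, with 702 to 799 counts in HepG2 before hypoxia, 1522 to 1763 after 24 h and 1673 to 1968 after 48 h. The counts in APOA4-KO were 607 to 702, 585 to 696 and 551 to 648 at the same times. Scaled to CPM, the lines did not overlap at any time (log2 difference −0.23, −1.35 and −1.29, adjusted p = 0.0404, 6.58e-11 and 8.96e-11). APOA4 RNA was thus lower in the edited line, not absent. The level of RNA does not measure the edit or the protein. The paper checked the edit by gel electrophoresis and sequencing and also measured APOA4 protein. All 10 markers of the hepatocyte lineage had counts in every library, and their summed level lay between 59020 CPM (counts per 1e6 counts) in HepG2 at 0 h and 87620 in APOA4-KO at 24 h. The summed level of 8 monocyte markers was 1100 to 1117 CPM in HepG2 at 0 h and 2574 to 2641 in APOA4-KO at 48 h. Nearly all of it came from LYZ (85686 to 210121 counts). CD68 (2373 to 5277 counts) and CD14 (292 to 767) were also present in every library. The leukocyte gene PTPRC (0 to 675 counts) and 4 others were at 0 in at least 1 library. These were FCGR3A (0 to 166), ITGAM (0 to 99), CSF1R (0 to 35) and MS4A7 (0 to 27). The part of such cells in the results was not tested. The total count of a library was 76481820 to 91604947. Counts of 4 and 8 were 2.91 and 2.33 times as frequent as the mean of their neighbours, which separate read pairs would not give, so low counts are less precise than their size implies.

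Sequence and position are given first for the members that changed most. MIR210HG lies on the minus strand of chromosome 11 (GRCh38, 565660 to 568457), and its hairpin, MIR210, lies in an intron at 568089 to 568198. The mature microRNAs of this hairpin and of MIR675, which lies in an exon of H19 at 1996759 to 1996831 of the same chromosome, are shown because they are the products for which both hosts are known. They are RefSeq sequences (GRCh38.p14), with the seed, bases 2 to 8, in capitals, and the 4 seeds differ.
hsa-miR-210-3p: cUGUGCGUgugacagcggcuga
hsa-miR-210-5p: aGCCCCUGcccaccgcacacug
hsa-miR-675-3p: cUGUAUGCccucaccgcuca
hsa-miR-675-5p: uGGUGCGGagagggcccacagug
Poly(A) libraries do not hold mature microRNAs: over all 18 libraries, the MIR210 row held 49 counts and the MIR675 row 18. The values below are therefore those of the host RNAs.

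RefSeq promoter windows of 300 bases, from 250 before the start to 50 after it, were held for 6 of the 8 members, all but NEAT1 and HULC. Those of MIR210HG (chr11:568408-568707, minus strand) and SNHG12 (chr1:28581824-28582123, minus strand), the members with the largest rises from 0 h, are printed 5′ to 3′ with ACGTG and GCGTG in capitals, which read as CACGT or CACGC where the motif is on the other strand.
MIR210HG promoter: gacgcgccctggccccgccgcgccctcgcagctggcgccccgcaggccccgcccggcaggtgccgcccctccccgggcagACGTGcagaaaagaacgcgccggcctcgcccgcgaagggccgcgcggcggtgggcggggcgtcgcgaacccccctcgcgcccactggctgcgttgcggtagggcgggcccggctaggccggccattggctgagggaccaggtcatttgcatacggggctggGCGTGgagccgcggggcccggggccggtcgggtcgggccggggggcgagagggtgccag
SNHG12 promoter: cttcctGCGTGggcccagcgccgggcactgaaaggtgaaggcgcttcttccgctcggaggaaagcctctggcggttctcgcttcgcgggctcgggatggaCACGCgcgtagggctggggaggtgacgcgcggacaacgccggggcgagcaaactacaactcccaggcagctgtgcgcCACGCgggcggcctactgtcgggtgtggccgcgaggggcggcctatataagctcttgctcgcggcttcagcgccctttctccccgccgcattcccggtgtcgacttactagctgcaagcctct
The MIR210HG window held ACGTG beginning 170 bases and GCGTG beginning 9 bases before the start. The SNHG12 window held GCGTG 3 times, beginning 244, 150 and 73 bases before the start, and no ACGTG. Of 35116 windows of this length, 21.4% held ACGTG, 36.5% held GCGTG and 7.26% held CACGTG, an E-box that contains ACGTG on both strands. The windows of SNHG1 and MALAT1 also held GCGTG, and those of GAS5 and H19 held none of these motifs. Hosts of snoRNAs are known to start with a C followed by a run of pyrimidines, as the messenger RNAs of ribosomal proteins do. The first 25 transcribed bases of the 3 hosts in RefSeq are shown with the first base and the pyrimidines that follow it in capitals.
SNHG12 start: CCTTTCTCCCCgccgcattcccggt
SNHG1 start: CTCatttttctactgctcgtggtaa
GAS5 start: Agatgtgtttattttggagcctaca
SNHG12 began with a run of 11 pyrimidines, SNHG1 with a run of 3 and GAS5 with an A. Each is a single RefSeq start, and other starts of these hosts were not examined. The SNHG12 window (28581824 to 28582123) lies inside its gene, which reaches to 28582983 in RefSeq and 28583132 in GENCODE release 29. GAS5 reaches to 173869045 in RefSeq and 173868882 in GENCODE. A C followed by at least 4 pyrimidines opened 4.07% of the 35116 transcripts. These matches describe the windows and do not show binding or a start in these cells.

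Levels can be compared between genes only per length, as the deposited FPKM. The length it divides by (median over the libraries) was 5084 bases for GAS5, 4108 for SNHG1, 4463 for SNHG12 and 23300 for NEAT1. These lengths are near the whole spans of the genes in GENCODE, 4983, 3927, 4595 and 22767 bases. An RNA shorter than such a length is set too low, so the order below may not be that of transcripts. GAS5 and SNHG1 stood highest in all 6 groups, with means of 5.21 ± 0.211 and 5.17 ± 0.180 FPKM (SD, n = 3) in HepG2 at 0 h, which did not differ beyond their spread. H19 followed at 1.32 ± 0.132, then MALAT1 at 0.717 ± 0.104 and NEAT1 at 0.617 ± 0.0322, whose ranges touched. MIR210HG at 0.437 ± 0.145 and SNHG12 at 0.373 ± 0.0850 overlapped at the bottom of this group. After 48 h in HepG2, MIR210HG was the third at 2.20 ± 0.298 FPKM, clear of SNHG12 at 0.757 ± 0.0723, and of the others only the HULC row was below NEAT1 at 0.520 ± 0.0200. In APOA4-KO at 24 h, MIR210HG (2.44 ± 0.140) and MALAT1 (2.34 ± 0.207) overlapped with each other, below GAS5 and SNHG1. At 48 h in APOA4-KO, GAS5 was at 7.12 ± 0.416 FPKM and SNHG1 at 4.85 ± 0.289, which did not overlap. The row matched to HULC stayed lowest in every group, at 0.0133 to 0.0333 FPKM. Its FPKM divides by the length of a far longer locus, so this rank may not be that of HULC itself. FPKM divides by the library total without further scaling, so it is used here for the order within a group and not for change.

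**Figure D1:**
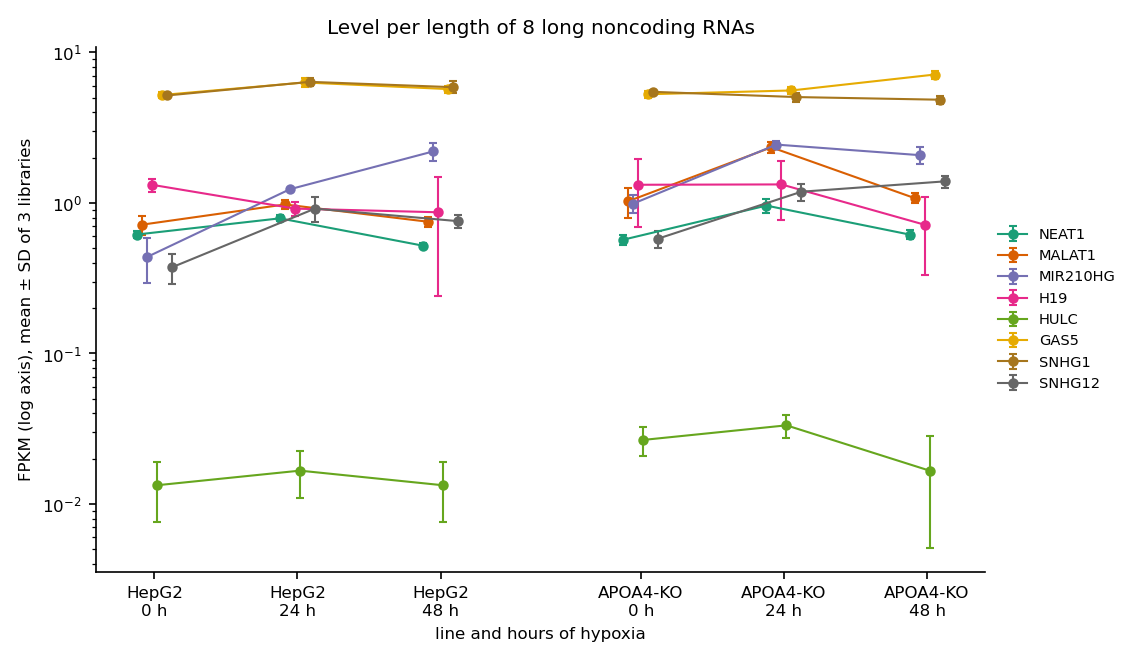
Level per length of the 8 long noncoding RNAs, as the mean FPKM of 3 libraries on a log axis with the SD as error bars, by line and hours of hypoxia. GAS5 and SNHG1 lie above the other 6 in all groups, and MIR210HG lies below H19, MALAT1 and NEAT1 in HepG2 at 0 h and above them at 48 h. The row matched to HULC lies lowest, but its FPKM divides by about 53601 bases, against 1588 bases for HULC in RefSeq.

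The HULC row needs a caution before its values are used. Its identifier, ENSG00000285219, belongs in GENCODE release 29 to AL591485.1, a locus of 858566 bases with 48393 exonic bases (chromosome 6, 8435568 to 9294133, plus strand), and RefSeq places the 1588 bases of HULC (8652269 to 8653856) inside it. The FPKM of the row corresponds to a length of 53601 bases (median over the libraries), so the row counts reads over the long locus. Reads of HULC itself cannot be told apart from the rest of it.

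Exon overlap with other genes was small for most members. No exonic base of MIR210HG was shared with another gene. GAS5 shared 1.16% of its exonic bases with its antisense neighbour GAS5-AS1, which held 207 counts over all libraries. SNHG1 shared 15.3% with the snoRNAs it hosts and SNHG12 9.54%, also with its snoRNAs and with 8 bases at the end of TRNAU1AP. The rows of the snoRNAs inside SNHG1 held at most 1 count in a library, so the snoRNAs were not measured, and almost no reads were given to them. NEAT1 shared 2.13%, MALAT1 6.21% and H19 7.35%, with short RNAs and antisense genes. The HULC row shared 1.22%, of which 306 bases were with AL355499.2, a long noncoding RNA on the same strand that held 12 counts over all libraries. The labels describe a dUTP protocol, which marks strand, while the kit that the study's methods name does not say so in its name. Whether the counting used strand is not given in the sources used here.

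**Figure D2:**
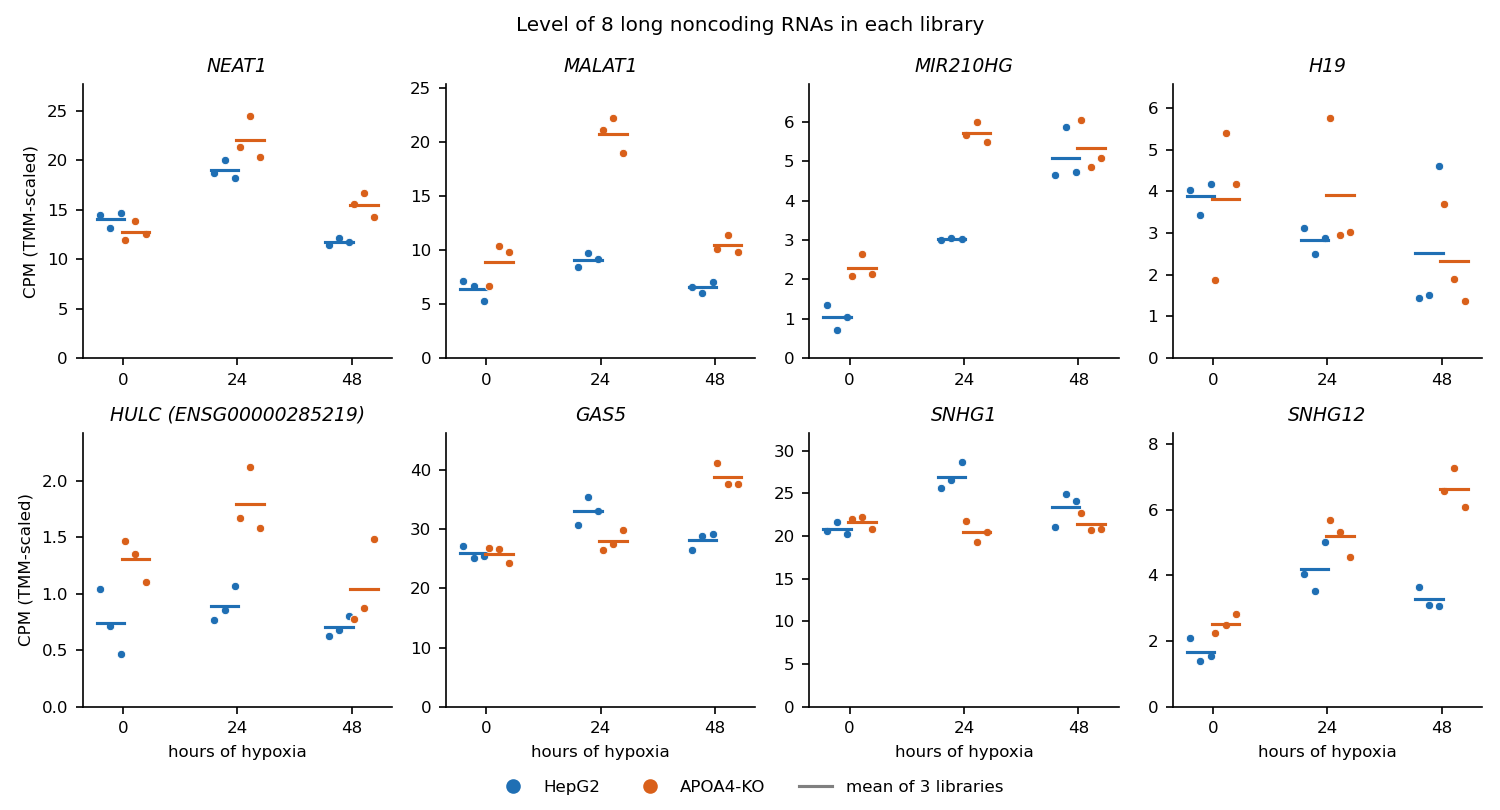
CPM after scaling with TMM (a correction of library sizes for composition) of each long noncoding RNA in the 18 libraries, by hours of hypoxia. Each point is a library and each bar the mean of 3. MIR210HG and SNHG12 lie lowest at 0 h in both lines, MALAT1 peaks at 24 h in APOA4-KO, and the points of H19 scatter widely.

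MIR210HG, the host of miR-210, was the member that rose most in HepG2. Its counts in HepG2 were 114, 58 and 87 before hypoxia, 231, 272 and 251 after 24 h and 437, 495 and 429 after 48 h. No library of one time overlapped with another, and the rise continued from 24 h to 48 h. The level went from 1.03 ± 0.325 CPM (SD, n = 3) to 3.03 ± 0.0304 and 5.08 ± 0.686, a log2 fold change of 1.55 by 24 h (standard error 0.19, edgeR adjusted p = 3.33e-06) and of 2.30, or 4.91-fold, by 48 h (standard error 0.19, adjusted p = 3.69e-08). In APOA4-KO, the counts were 165, 237 and 186, then 479, 468 and 444, then 436, 368 and 365. On the CPM scale the edited line began above every HepG2 library at 0 h, and its own libraries at 24 h and 48 h overlapped. Against 0 h it rose by 1.32 on the log2 scale in the first day of hypoxia (adjusted p = 5.84e-06) and stood 1.22 higher after 48 h (adjusted p = 1.43e-05), and between 24 h and 48 h the change was −0.10 (95% interval −0.48 to 0.27, adjusted p = 0.703). Between the lines, MIR210HG was higher in APOA4-KO by 1.14 before hypoxia (adjusted p = 0.000111) and by 0.92 after 24 h (adjusted p = 0.000281), while at 48 h the difference was 0.07 with an interval of −0.31 to 0.44. The change from 0 h to 48 h was smaller in APOA4-KO by 1.08 on the log2 scale (standard error 0.26, adjusted p = 0.0027), and the change to 24 h differed by −0.23 (adjusted p = 0.596). The nearest coding gene, RASSF7, 1639 bases away, was 0.45 higher at 48 h than at 0 h in HepG2 and 0.67 higher in APOA4-KO (adjusted p = 0.000337 and 1.48e-06). At 24 h RASSF7 did not pass against 0 h in HepG2 (0.15, adjusted p = 0.225) or in APOA4-KO (−0.05, adjusted p = 0.704). Between the lines it was lower in APOA4-KO at 0 h (−0.23, adjusted p = 0.0443) and 24 h (−0.42, adjusted p = 0.000275), where MIR210HG was higher.

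SNHG12, a host of snoRNAs of the box H/ACA and box C/D classes, was the only one of the 3 hosts that passed the test as higher at both times in both lines. Its counts in HepG2 were 176, 116 and 128 before hypoxia, 311, 312 and 415 after 24 h and 344, 262 and 279 after 48 h. In APOA4-KO they were 178, 223 and 245, then 479, 415 and 369, then 472, 552 and 437. In each line all 6 hypoxic libraries lay above the 3 at 0 h. Relative to 0 h, SNHG12 in HepG2 was higher by 1.32 after 24 h and by 0.97 after 48 h on the log2 scale (standard error 0.17 for both, adjusted p = 7.68e-06 and 0.000264), and in APOA4-KO it was 1.04 and 1.40 (standard error 0.17, adjusted p = 4.05e-05 and 1.15e-06). The change from 0 h did not pass the test of a difference between the lines at 24 h (−0.28, 95% interval −0.78 to 0.23, adjusted p = 0.459) or at 48 h (0.43, interval −0.07 to 0.94, adjusted p = 0.187). At 48 h SNHG12 was 6.64 ± 0.605 CPM in APOA4-KO against 3.28 ± 0.326 in HepG2, a log2 difference of 1.02 (adjusted p = 4.43e-05). The difference at 0 h, 0.58 (adjusted p = 0.0145), was lost without HepG2 0 h replicate 2 (0.47, adjusted p = 0.0868), without HepG2 0 h replicate 3 (0.52, adjusted p = 0.0678) or without APOA4-KO 0 h replicate 3 (0.49, adjusted p = 0.0771). It was also lost in limma on log2(FPKM + 1) without the filter (adjusted p = 0.0786). At 24 h the difference was 0.31 (adjusted p = 0.147), which passed in limma on log2(FPKM + 1) (adjusted p = 0.0382) and, with an adjusted p that rounds to 0.05, without HepG2 24 h replicate 3 (0.46). TRNAU1AP, which overlaps the 3′ end of SNHG12 on the other strand, was instead lower in APOA4-KO at 48 h than at 0 h, with a log2 fold change of −0.49 (adjusted p = 0.000152). RCC1, 39238 bases away on one side, passed the test in none of the comparisons, with log2 fold changes from 0 h of 0.01 to 0.07.

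NEAT1 rose at 24 h in both lines and was lower again at 48 h. In HepG2, its counts were 1219, 1086 and 1214 before hypoxia, 1443, 1779 and 1503 after 24 h and 1072, 1024 and 1067 after 48 h. APOA4-KO had 947, 1247 and 1088, then 1802, 1906 and 1645, then 1119, 1264 and 1028. On the CPM scale no library at 24 h overlapped with those at 0 h or 48 h in either line. The log2 fold change from 0 h to 24 h was 0.43 in HepG2 (standard error 0.08, adjusted p = 0.000289) and 0.79 in APOA4-KO (standard error 0.08, adjusted p = 9.83e-08), and from 24 h to 48 h it was −0.69 and −0.51 (adjusted p = 1.69e-06 and 3.14e-05). At 48 h NEAT1 lay below its 0 h level in HepG2, with a change of −0.26 (adjusted p = 0.0202), and above it in APOA4-KO by 0.28 (adjusted p = 0.00668). The HepG2 call was lost without HepG2 0 h replicate 1 (−0.22, adjusted p = 0.108), 0 h replicate 3 (−0.21, adjusted p = 0.112), 48 h replicate 1 (−0.22, adjusted p = 0.103) or 48 h replicate 3 (−0.24, adjusted p = 0.08). It was also lost in limma's fits of log2 FPKM (adjusted p = 0.134 to 0.215). The APOA4-KO call was lost when only library totals were used for scaling (0.12, adjusted p = 0.237) and in limma's fits of log2 FPKM (adjusted p = 0.421 to 0.542). Relative to 0 h, NEAT1 gained more in APOA4-KO than in HepG2, by 0.35 after 24 h (adjusted p = 0.0194) and 0.54 after 48 h (adjusted p = 0.000805). The first of these was lost without HepG2 24 h replicate 3 (0.33, adjusted p = 0.0517) or without APOA4-KO 24 h replicate 2 (0.27, adjusted p = 0.0699). It was also lost in limma on log2(FPKM + 0.1) (adjusted p = 0.0696) and on log2(FPKM + 1) without the filter (0.0555). The second was lost in limma's fits of log2 FPKM (adjusted p = 0.0895 to 0.147).

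Between the lines NEAT1 was 12.8 ± 0.983 CPM in APOA4-KO and 14.1 ± 0.814 in HepG2 at 0 h, a log2 difference of −0.14 (95% interval −0.31 to 0.03, adjusted p = 0.217). After 48 h it was higher in APOA4-KO by 0.40 (adjusted p = 0.000321), and after 24 h by 0.22 (adjusted p = 0.0294). The call at 24 h was lost without HepG2 24 h replicate 1 (0.21, adjusted p = 0.0791), HepG2 24 h replicate 3 (0.19, adjusted p = 0.11) or APOA4-KO 24 h replicate 2 (0.13, adjusted p = 0.204). The call at 48 h was lost in limma's fits of log2 FPKM (adjusted p = 0.0851 to 0.14). FRMD8, the coding gene that ends 9249 bases from the start of NEAT1, moved the other way at 24 h: it was lower at 24 h than at 0 h, with log2 fold changes of −0.32 in HepG2 and −0.92 in APOA4-KO, and at 48 h it was lower as well, with −0.31 and −1.50 (adjusted p of at most 1.03e-05), when NEAT1 was also below 0 h in HepG2.

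MALAT1 had its peak at 24 h, and the peak was higher in the edited line. In HepG2, its counts were 598, 550 and 441 before hypoxia, 648, 862 and 754 after 24 h and 621, 511 and 640 after 48 h. In APOA4-KO, they were 525, 932 and 851, then 1779, 1727 and 1536, then 730, 863 and 705. The 3 libraries of APOA4-KO at 24 h lay above all 15 others, and replicate 1 of APOA4-KO at 0 h lay within the HepG2 range. The level in APOA4-KO went from 8.93 ± 2.01 CPM to 20.7 ± 1.64 and back to 10.4 ± 0.831, with a log2 fold change of 1.21 from 0 h to 24 h (standard error 0.14, adjusted p = 4.83e-07) and −0.99 from 24 h to 48 h (adjusted p = 8.6e-06). In HepG2 the rise to 24 h was 0.52 (adjusted p = 0.00795), and without HepG2 0 h replicate 3 it was 0.40 (adjusted p = 0.0545). The call was also lost in limma on log2(FPKM + 1), with an adjusted p of 0.0513, or 0.0874 without the filter. At 48 h against 0 h MALAT1 did not pass the test in HepG2 (0.05, 95% interval −0.24 to 0.34) or in APOA4-KO (0.22, interval −0.07 to 0.52). The rise to 24 h was larger in APOA4-KO by 0.70 (standard error 0.20, adjusted p = 0.00891). Between the lines MALAT1 was higher in APOA4-KO by 1.19 after 24 h (adjusted p = 5.52e-07) and by 0.67 after 48 h (adjusted p = 0.000474). The difference at 0 h, 0.49 (adjusted p = 0.011), was lost without HepG2 0 h replicate 3 (0.37, adjusted p = 0.0752), APOA4-KO 0 h replicate 2 (0.37, adjusted p = 0.0816) or APOA4-KO 0 h replicate 3 (0.42, adjusted p = 0.0598).

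GAS5, a snoRNA host known for its rise in cells whose growth has stopped, rose at different times in the 2 lines. Its counts in HepG2 were 2288, 2084 and 2111 before hypoxia, 2365, 3149 and 2733 after 24 h and 2492, 2433 and 2643 after 48 h. APOA4-KO had 2128, 2393 and 2108, then 2237, 2142 and 2430, then 2970, 2863 and 2715. In CPM the highest group was HepG2 at 24 h in one line, 33.1 ± 2.36, and APOA4-KO at 48 h in the other, 38.9 ± 2.01, and both stood clear of their own 0 h libraries. In HepG2, GAS5 was higher than at 0 h by 0.35 on the log2 scale after 24 h (standard error 0.06, adjusted p = 0.000275), and the change to 48 h was 0.12 (95% interval −0.02 to 0.25, adjusted p = 0.198). In APOA4-KO the change to 24 h was 0.11 (interval −0.02 to 0.25, adjusted p = 0.18), and after 48 h GAS5 was higher by 0.59 (standard error 0.06, adjusted p = 2.6e-07). Between the lines GAS5 was level at 0 h (−0.00, interval −0.14 to 0.13), lower in APOA4-KO at 24 h by 0.24 on the log2 scale (adjusted p = 0.00389) and higher at 48 h by 0.47 (adjusted p = 4.51e-06). The call at 24 h was lost in limma on log2(FPKM + 1) without the filter (adjusted p = 0.0588). The change to 48 h was larger in APOA4-KO by 0.47 (adjusted p = 0.00038). For the change to 24 h the difference was −0.24 with an adjusted p of 0.0516, which passed without HepG2 0 h replicate 1 (adjusted p = 0.0452), HepG2 24 h replicate 1 (0.0225), APOA4-KO 0 h replicate 3 (0.0346) or APOA4-KO 24 h replicate 3 (0.0295). With all libraries, it passed with DESeq2 size factors in edgeR (−0.28, adjusted p = 0.0229) and in the DESeq2 Wald test (−0.28, adjusted p = 0.0185). ZBTB37, which shares the start region of GAS5 on the other strand, was higher in APOA4-KO than in HepG2 at 24 h by 0.78 (adjusted p = 5.17e-05), where GAS5 was lower. At 48 h ZBTB37 was again higher in APOA4-KO, by 0.47 (adjusted p = 0.00544), where GAS5 was higher too.

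SNHG1, a host of 7 annotated snoRNAs, rose in HepG2 at 24 h, and its changes from 0 h in APOA4-KO did not pass the test with TMM scaling. Its counts in HepG2 were 1738, 1786 and 1677 before hypoxia, 1971, 2362 and 2368 after 24 h and 1980, 2102 and 2183 after 48 h. In APOA4-KO, they were 1742, 1999 and 1809, then 1838, 1500 and 1655, then 1632, 1572 and 1500. The libraries of HepG2 at 24 h lay above all those of APOA4-KO on the CPM scale. In HepG2 it rose by 0.37 on the log2 scale in 24 h (standard error 0.07, adjusted p = 0.000225). Its change from 0 h to 48 h there was 0.17 (adjusted p = 0.0746), and without HepG2 48 h replicate 1 it was 0.25 (adjusted p = 0.00835). In APOA4-KO it was −0.08 at 24 h (95% interval −0.22 to 0.06) and −0.02 at 48 h (interval −0.16 to 0.12). With scaling by library totals alone, SNHG1 passed as lower in APOA4-KO at 48 h (−0.18, adjusted p = 0.0401). The change to 24 h, taken as APOA4-KO minus HepG2, differed by −0.45 (standard error 0.09, adjusted p = 0.000856). At 24 h SNHG1 itself was lower in APOA4-KO, with a log2 difference of −0.40 (adjusted p = 5.33e-05). At 48 h the difference was −0.13 (adjusted p = 0.133), and it passed with scaling by library totals (−0.27, adjusted p = 0.00221) or without HepG2 48 h replicate 1 (−0.19, adjusted p = 0.0208). For the change to 48 h this difference was −0.18 (adjusted p = 0.148), and it likewise passed with library totals (−0.36, adjusted p = 0.00631) or without HepG2 48 h replicate 1 (−0.25, adjusted p = 0.036). SLC3A2, an amino acid transporter subunit whose gene starts 188 bases from that of SNHG1 on the other strand, fell in both lines, by 0.14 in HepG2 and 0.49 in APOA4-KO on the log2 scale at 24 h. WDR74, the coding gene on the other side, rose by 0.32 in HepG2 at 24 h and fell by 0.23 in APOA4-KO (adjusted p = 4.18e-05 and 0.000634).

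H19, the imprinted RNA, passed the test in none of the 11 comparisons. Its counts in HepG2 were 340, 283 and 347 before hypoxia, 240, 223 and 239 after 24 h and 136, 127 and 419 after 48 h. APOA4-KO had 149, 485 and 362, then 485, 230 and 246, then 267, 144 and 99. In 4 of the 6 groups 1 library held more than double the counts of another. The SD was 40.7% to 71.9% of the mean in the 3 APOA4-KO groups and in HepG2 at 48 h, against 10.3% and 10.8% in HepG2 at 0 h and 24 h. The standard error of a log2 fold change was 0.44 to 0.45 between groups, and the interval of the change from 0 h to 48 h ran from −1.55 to 0.32 in HepG2 and from −1.65 to 0.23 in APOA4-KO, so a fall of more than 1 log2 unit lay within both intervals. Without HepG2 48 h replicate 3, H19 passed as lower at 48 h than at 0 h in HepG2, with a log2 fold change of −1.37 (adjusted p = 0.026). IGF2, the imprinted growth factor gene 127642 bases away, was higher than at 0 h by 1.27 after 24 h and by 0.38 after 48 h in HepG2 on the log2 scale, and by 1.48 and 1.25 in APOA4-KO (adjusted p of at most 1.46e-11). IGF2 was higher in APOA4-KO by 1.90 on the log2 scale at 48 h (adjusted p = 8.78e-22), where H19 differed by −0.12 (95% interval −1.06 to 0.82).

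The HULC row, read with the caution above, had 88, 59 and 39 counts in HepG2 before hypoxia, 59, 76 and 88 after 24 h and 59, 57 and 73 after 48 h. In APOA4-KO, it had 116, 122 and 96, then 141, 165 and 128, then 56, 66 and 107. In CPM the libraries of the edited line lay above those of HepG2 before hypoxia and after 24 h, and the lines overlapped after 48 h. The log2 difference after 24 h was 1.00 (standard error 0.30, adjusted p = 0.01). This call was lost in limma on log2(FPKM + 1) (adjusted p = 0.172) and on log2(FPKM + 0.1) (0.115). Before hypoxia the difference was 0.82 (adjusted p = 0.0504), and after 48 h it was 0.57 (adjusted p = 0.133). The value at 0 h passed without HepG2 0 h replicate 1 (1.14, adjusted p = 0.0144). It also passed with library totals (adjusted p = 0.0441), with DESeq2 size factors in edgeR (0.0437) and in the DESeq2 Wald test (0.037). No change from 0 h passed the test in either line. The fall in APOA4-KO from 24 h to 48 h, −0.78 (adjusted p = 0.0472), did not pass in 13 of 15 other settings, among them those without APOA4-KO 24 h replicate 1 (adjusted p = 0.0697), 2 (0.161) or 3 (0.0551) and without APOA4-KO 48 h replicate 1 (0.176) or 2 (0.154). SLC35B3, which shares 44 exonic bases with the locus, held 573 counts on average and differed by 0.06 at 24 h (adjusted p = 0.739).

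**Figure D3:**
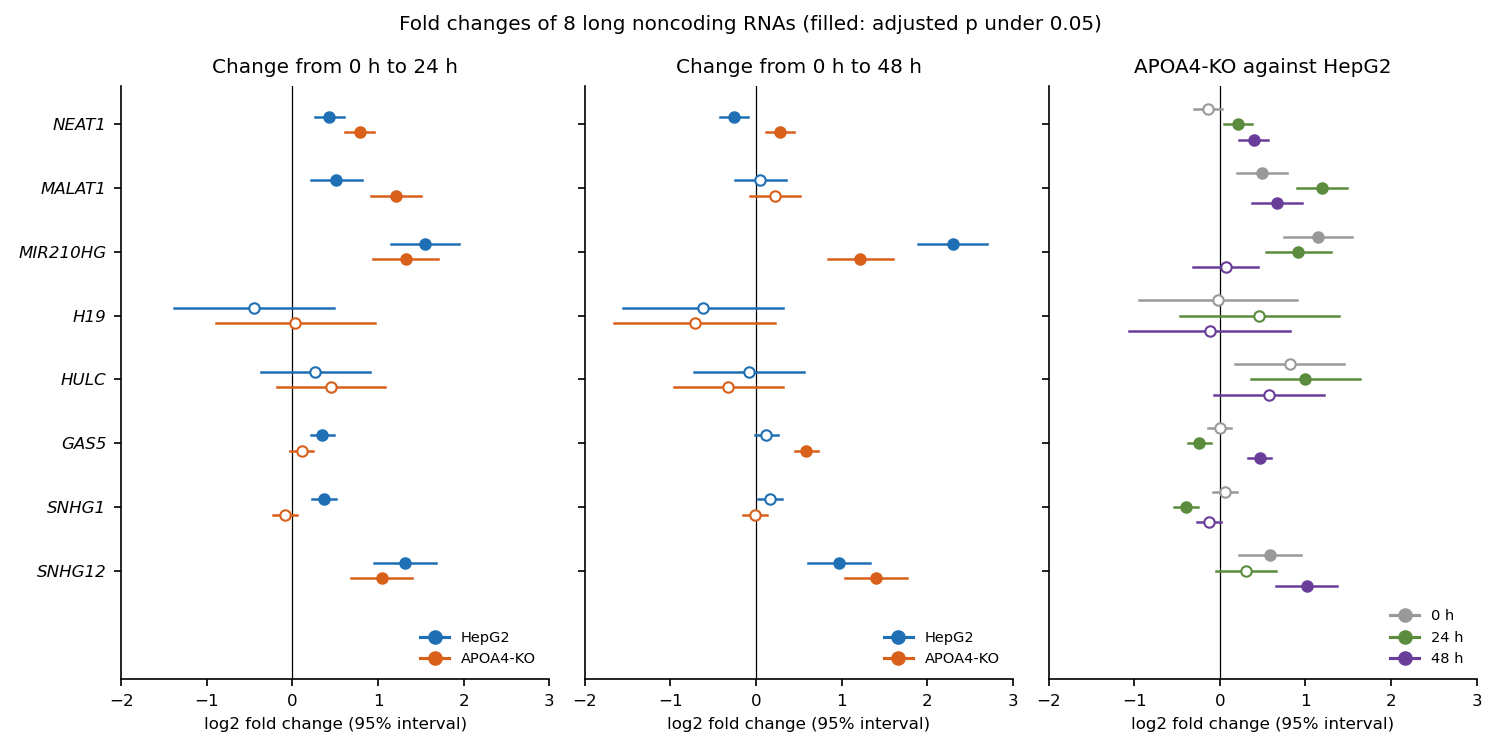
Log2 fold changes of the 8 long noncoding RNAs, with 95% intervals from the edgeR fit, for each line at 24 h and at 48 h of hypoxia against 0 h and for APOA4-KO against HepG2 at each time. Filled points have an adjusted p under 0.05. MIR210HG and SNHG12 lie to the right of 0 at both times in both lines, and the intervals of H19 include 0 throughout.

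Counted over the 8 members at an adjusted p under 0.05, 6 rose in HepG2 from 0 h to 24 h and 0 fell, where 29.6% of all tested genes were called and 11.4% were called higher. From 0 h to 48 h in HepG2, 2 rose and 1 fell, where 27.7% of genes were called, 13.1% higher and 14.6% lower. From 24 h to 48 h 1 rose and 4 fell, where 30.5% were called, 18.7% higher and 11.9% lower. MIR210HG rose by 0.74, and NEAT1 (−0.69), MALAT1 (−0.47), GAS5 (−0.23) and SNHG1 (−0.21) fell. Of these 5 calls 3 were left without HepG2 24 h replicate 2, and also 3 without HepG2 48 h replicate 1. In APOA4-KO 4 members rose and 0 fell by 24 h. This is near the 44.4% of all genes called in either direction, and 21.5% of all genes were called higher. By 48 h it was again 4 and 0, near the 49.9% of all genes called in either direction, and 23.9% of all genes were called higher. Between 24 h and 48 h 1 rose and 3 fell in the edited line, where 41.3% of genes were called, 21.9% higher and 19.4% lower. GAS5 rose by 0.47 there, and MALAT1 (−0.99), HULC (−0.78) and NEAT1 (−0.51) fell.

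Between the lines, 3 members were higher in APOA4-KO at 0 h and 0 lower, where 30.5% of genes were called and 12.9% were higher. The count was 1 without HepG2 0 h replicate 3 and also 1 without APOA4-KO 0 h replicate 3. At 24 h 4 were higher and 2 lower, where 48.1% of genes were called, 23.6% higher and 24.6% lower. At 48 h 4 were higher and 0 lower, a share near the 50.8% of all genes called in either direction, and 23.5% of all genes were called higher. The change from 0 h to 24 h differed between the lines for 3 members, 2 more positive in APOA4-KO and 1 more negative, where 32.2% of genes were called, 16.8% positive and 15.4% negative. For the change to 48 h it was again 2 and 1, where 36.4% were called, 18.6% positive and 17.8% negative.

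Among the called members, those that also rose at least 2-fold (1 on the log2 scale) were MIR210HG and SNHG12 in HepG2 by 24 h, where 2.06% of all genes did so, and MIR210HG by 48 h, where 1.41% did. In APOA4-KO they were MALAT1, MIR210HG and SNHG12 by 24 h (3.69% of genes) and MIR210HG and SNHG12 by 48 h (5.34%). Between the lines, MIR210HG at 0 h, MALAT1 at 24 h and SNHG12 at 48 h passed this limit as higher in APOA4-KO, where 2.65%, 4.5% and 6.37% of genes did. The change of MIR210HG to 48 h also differed by over 1 between the lines, where 3.99% of genes did in the negative direction.

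The genes around which these RNAs are known to act were followed as lists, which were chosen with earlier results of these data known. HIF targets gave the measure of the hypoxic response: all 25 rose at 48 h in both lines, with a median log2 fold change of 1.57 in HepG2 and 1.95 in APOA4-KO, beside medians of −0.03 and −0.07 over all genes, and with the same 25 of 25 under each of the other scalings. The share of all genes called higher at 48 h was 13.1% in HepG2 and 23.9% in APOA4-KO. CA9, a carbonic anhydrase of the cell surface, changed by 2.99 in HepG2 and 3.42 in APOA4-KO at 48 h. Already at 0 h, 24 of the 25 were higher in APOA4-KO, with a median of 0.37, and at 24 h 24 were higher with a median of 1.29. MIR210HG was thus higher in the edited line at 0 h and 24 h beside these targets, and at 48 h, where 22 of 25 targets were higher and 3 lower with a median of 0.80, MIR210HG differed by 0.07.

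Of 30 other snoRNA host genes, 18 rose and 1 fell in HepG2 at 24 h (median 0.24), where GAS5, SNHG1 and SNHG12 rose too and 11.4% of all genes were called higher. With scaling by library totals alone 13 hosts rose and 1 fell. In APOA4-KO at 24 h, 6 rose and 6 fell (median −0.10), where 44.4% of all genes were called and 21.5% were higher. Compared between the lines, this change was more negative in APOA4-KO for 13 hosts and more positive for 4 (median −0.33, with −0.01 over all genes), and 13 and 4 were also called with scaling by library totals. The shares of all genes were 15.4% more negative and 16.8% more positive. SNHG1 was among the lower in this comparison and SNHG12 was not called. At 48 h in APOA4-KO, 14 hosts rose and 5 fell, with 12 and 8 under library totals, which turned the median from 0.15 to −0.01. There 49.9% of all genes were called and 23.9% were higher. EPB41L4A-AS1 changed by 1.37 and EIF4A2 by 0.97, while SNHG20 changed by −1.07 and SNHG30 by −1.33. In HepG2 at 48 h, 5 rose and none fell, led by TAF1D at 0.35, where 13.1% of all genes were called higher. The RNAs of factors of nonsense-mediated decay, the pathway that removes the spliced hosts, moved in both directions: at 24 h 3 rose and 6 fell of 17 in HepG2, and 9 rose and 5 fell in APOA4-KO. Of all genes, 29.6% were called at 24 h in HepG2 and 44.4% in APOA4-KO.

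**Figure D4:**
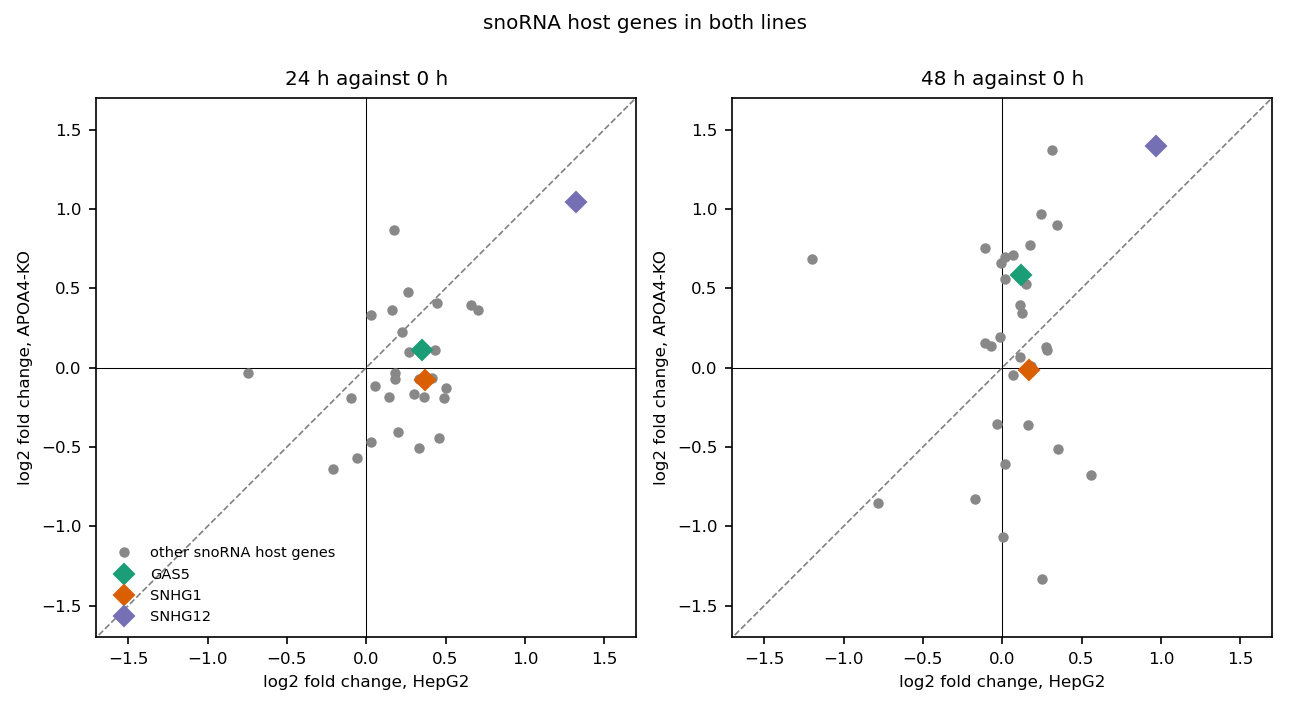
Log2 fold change from 0 h in HepG2 (horizontal) against that in APOA4-KO (vertical) of 30 other snoRNA host genes (gray points) and of GAS5, SNHG1 and SNHG12 (diamonds), at 24 h on the left and at 48 h on the right. The dashed line marks equal change. SNHG12 lies in the upper right of both panels, and SNHG1 lies near 0 on the vertical axis.

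The RNAs that encode proteins of the paraspeckle, the body built on NEAT1, were followed beside it. The levels of these proteins are not measured by the libraries. At 24 h, 14 of 20 were higher and 4 lower in APOA4-KO than in HepG2 (median 0.28), where 23.6% of all genes were called higher and 24.6% lower. At 48 h 4 were higher and 12 lower (median −0.17), where 50.8% of all genes were called and 23.5% were higher. The list and NEAT1 thus differed in sign at 48 h. The RNAs of RBM14 and SFPQ, proteins both needed for paraspeckles to form, were lower in APOA4-KO at 48 h, with log2 differences of −1.59 and −1.11 (adjusted p = 2.72e-16 and 2.53e-15). In APOA4-KO from 0 h to 48 h, 8 rose and 9 fell, with 5 and 13 under library totals, and in HepG2 10 rose and 1 fell. Of all genes, 49.9% were called in APOA4-KO and 27.7% in HepG2. Among the RNAs of 16 proteins of nuclear speckles, where MALAT1 lies, 7 were higher and 9 lower in APOA4-KO at 48 h, where 50.8% of all genes were called. SRSF6 differed by −1.62, SRSF2 by −1.39 and SRSF1 by −1.34, and the kinase CLK1, which phosphorylates such splicing factors, by 1.33.

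Of the imprinted genes and the genes of IGF2 mRNA-binding proteins, 18 of 22 could be tested. At 48 h 10 were higher and 1 lower in APOA4-KO (median 0.31), where 23.5% of all genes were called higher, and with library totals 9 were higher and 4 lower (median 0.16). PLAGL1 differed by 2.36, IGF2 by 1.90, DLK1 by 1.31 and PEG3 by 1.14. Of 12 tested lncRNAs named in hypoxia, 2 rose in HepG2 at 48 h (TUG1 by 0.21 and NORAD by 0.19) and 7 in APOA4-KO, with CYTOR at 1.34, where 4 were left with library totals. Of 18 tested lncRNAs named in hepatoma, 2 rose at 48 h in HepG2, and 4 rose and 3 fell in APOA4-KO, with 2 and 4 under library totals. Beside both lncRNA lists, 27.7% of all genes were called at 48 h in HepG2 (13.1% higher) and 49.9% in APOA4-KO (23.9% higher). In HepG2 the counts of both lists were near the share called higher. LINC00261 went up by 0.56 in HepG2 and had a log2 fold change of −0.48 in APOA4-KO.

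The 3 genes most like each member were taken by Pearson's correlation of log2 CPM over the 18 libraries, which share their groups, so the values describe likeness and carry no p. SNHG12 was most like CA9 (r = 0.964), RAB42 (0.963) and CHST15 (0.961), and RAB42 lies 9067 bases from SNHG12 on chromosome 1. MIR210HG was most like LDHA (0.964), lactate dehydrogenase A, and SMIM3 and TUBB1 (0.960 and 0.957). NEAT1 was most like SERPINA3 (0.918), LAP3 (0.912) and C4A (0.906), of which SERPINA3 and C4A are acute-phase and complement genes. MALAT1 was most like CMTM4 (0.957), GAS5 like EPS8L3 (0.949) and the HULC row like GCA (0.883). SNHG1 was most like EEF1B2 (0.870), a translation elongation factor gene that hosts snoRNAs, and H19 had no gene above 0.748 (TXNL4A). Among the members themselves, MIR210HG and SNHG12 had the highest correlation (0.856), followed by NEAT1 and MALAT1 (0.791). The choice of measure decided the names: with Spearman's correlation 0 or 1 of the 3 genes stayed, and with the 6 group means 0 to 2.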

How the data were processed

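Poly(A) RNA of 18 libraries was sequenced, 3 for each line and time. Per the study's methods, fastp was used for trimming, HISAT2 for alignment to GRCh38.p13 and featureCounts for counting, while the submitters' processing notes name StringTie. How strand and reads with several alignments were treated in the counting is not given in the sources used here. The deposited counts are whole numbers without normalization, with 76481820 to 91604947 per library. The deposited FPKM values are counts per gene length and library total, rounded by the authors to 2 decimals.

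The tests used edgeR 4.0.16 (R 4.3.3), with filterByExpr on the 6 groups, TMM scaling, a quasi-likelihood model of all 18 libraries with a coefficient per group, 11 contrasts and Benjamini-Hochberg adjustment over 19743 genes. Intervals are 95% intervals on 17.5 degrees of freedom. The code was tested on simulated data, where changed genes with few counts were mostly missed, so a member without a call, above all with a low count, may still have changed. Lists are described by counts and medians. Genes of the lists are named by the 4 largest absolute log2 fold changes among those called at 48 h, likeness genes as the 3 highest correlations among genes with at least 500 counts on average, and neighbours by position. Other settings used library totals, DESeq2 1.42.0, limma 3.58.1 on log2(FPKM + 1) and log2(FPKM + 0.1), no filter, a replicate block, only the groups compared, and each library left out. Positions are from GENCODE release 29 and sequences from RefSeq. The members and lists were chosen with earlier results of these data known.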

Additional observations from a re-analysis of the deposited data

Results flagged for a closer look

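The results given here are those in which the change from 0 h differed between the lines by a test of the difference itself, in edgeR's quasi-likelihood model with adjustment over all tested genes. A positive value means a more positive change in APOA4-KO.

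For NEAT1 the difference was 0.35 for the change to 24 h (standard error 0.11, adjusted p = 0.0194). For its change to 48 h it was 0.54 (standard error 0.11, adjusted p = 0.000805). For MALAT1 it was 0.70 at 24 h (standard error 0.20, adjusted p = 0.00891). For GAS5 it was 0.47 at 48 h (standard error 0.09, adjusted p = 0.00038). It was −0.45 for SNHG1 at 24 h (standard error 0.09, adjusted p = 0.000856) and −1.08 for MIR210HG at 48 h (standard error 0.26, adjusted p = 0.0027). Over all tested genes, 32.2% passed this test at 24 h and 36.4% at 48 h.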

How the results depend on the processing

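Over 88 pairs of member and comparison, 45 were called, 30 of them in every other setting run, and 35 were called in none. Of 1416 values under other settings, 1322 kept their side of the threshold, 67 lost a call, 27 gained one and 0 were reversed. A sign was compared only where a value was called. The number of members called in HepG2 at 48 h against 24 h, 5, fell to 3 with library totals and to 2 with limma on log2(FPKM + 1), on log2(FPKM + 0.1) and on log2(FPKM + 1) without the filter, and the cause was not tested. Leaving out a library gave 1 to 4 members for the lines at 0 h, where 3 were called, 5 to 6 at 24 h and 4 to 5 at 48 h, 5 to 6 in HepG2 at 24 h against 0 h, 2 to 3 at 48 h against 0 h and 3 to 5 at 48 h against 24 h, 4 in APOA4-KO at 24 h and at 48 h against 0 h and 3 to 4 at 48 h against 24 h, and 2 to 4 and 3 to 4 for the differences in change at 24 h and 48 h. Library totals moved the median of all genes to −0.19 for the lines at 48 h and −0.23 in APOA4-KO from 0 h to 48 h, from −0.04 and −0.07 with TMM. Same-numbered libraries did not deviate together: over 45 pairs the correlation was −0.14 to 0.05. No effect shared by a replicate number was seen, which cannot show whether the libraries were handled in matched sets. With the replicate block, the count of members called was 3, 6 and 4 for the lines at 0 h, 24 h and 48 h, and 1 call was lost, HULC in APOA4-KO from 24 h to 48 h (adjusted p = 0.0655). The low count of the HULC row and the spread of H19 limit what those 2 can show.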
